A study of Homo sapiens with 4 samples.

Results

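The region described here is the 10-kb window of chromosome 17 that holds the start of MNT, followed across 4 Hi-C libraries as 1 of 148 non-overlapping windows with values in every library. Hi-C joins and sequences DNA ends that lie close together in the nucleus, so each read pair counts 1 contact between 2 places in the genome. The window was chosen by its low total of read pairs in neuroectoderm, so its totals are given as a description with no test. The libraries came from H9, a widely used line of human embryonic stem cells (hESC) labelled WT in all groups, as 2 libraries of undifferentiated hESC with no treatment and 2 libraries of neuroectoderm made from H9 by neuroectodermal differentiation. The study asked which genes are in contact with HAR123, a human accelerated region with enhancer activity, and the deposited matrices cover the part of chromosome band 17p13.3 around it. Separate cultures are not stated for the libraries of a cell type, so p-values between cell types measure the spread between libraries, which may be technical. The p-values within a cell type come from Poisson tests and cover counting error only. Since the headers of replicate 1 carry 1 directory name in hESC and neuroectoderm alike, as do those of replicate 2, the cell types rest on the sample labels alone.

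MNT encodes a basic helix-loop-helix leucine zipper protein of the MAX network. MNT pairs with MAX, binds the E-box sequence CACGTG at promoters and represses transcription, and it is known for opposing MYC, the network's activator of growth genes, at shared targets. The gene (ENSG00000070444.15) lies on the minus strand of hg38 at chr17:2384073-2401104, between SGSM2, a GTPase-activating protein for small RAB proteins, on the lower side and METTL16, an RNA methyltransferase, on the higher side. The window spans chr17:2393501-2403500. It holds the start of the gene and the first 4 exons of the transcript ENST00000174618.5, of which exon 1 (chr17:2400640-2401060) carries the 5′ UTR and the start of the coding sequence.

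The 250 bases before the RefSeq start of MNT are shown because they are the promoter that gives the window its name. They were taken from the RefSeq promoter sequences (GRCh38.p14, chr17:2401061-2401310, minus strand) and are written 5′ to 3′ with the only CACGTG match in capitals.
MNT promoter: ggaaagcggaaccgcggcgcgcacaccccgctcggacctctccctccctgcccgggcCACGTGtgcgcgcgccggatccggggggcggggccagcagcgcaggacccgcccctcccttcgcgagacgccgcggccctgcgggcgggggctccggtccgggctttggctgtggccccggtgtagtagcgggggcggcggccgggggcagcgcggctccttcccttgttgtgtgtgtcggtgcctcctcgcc
The promoter was 78% G and C, against a median of 58% over 35116 promoters of the same length, and held 35 CG dinucleotides against a median of 11. CACGTG, which reads the same on both strands, occurred once, ending 187 bases before the RefSeq start, and 6.34% of the promoters held at least 1 match. The gene as placed above reaches chr17:2401104, so the 3′ end of the stretch shown lies within it. The match is a description of these letters and not a bound site.

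The whole window shared these features. Its G and C content was 63.3%, with 145 windows below it and 2 above, and it held 572 CG dinucleotides and 3 CACGTG matches, the medians over windows being 217.5 and 2. GATC, a site cut by enzymes often used for Hi-C, occurred 18 times against a median of 33, and only 2 windows held fewer. The enzyme of the kit is not given in the sources used here, and the part of these features in the values that follow was not tested.

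Counted over non-overlapping windows, the hESC matrices held 57025 and 57554 read pairs, and those of neuroectoderm 35199 and 35484. A window pair at least 20 kb apart held on average 2.91 and 2.93 read pairs in the hESC libraries against 1.42 and 1.47 in those of neuroectoderm, so single window pairs rest on few reads, and all intervals given cover counting error only. Read pairs that stayed within 1 window made up 29.9% and 30.3% of the hESC totals, and 44.7% and 43.6% of those of neuroectoderm.

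At the position chosen, the MNT window was among the better covered windows in hESC and among the poorly covered ones in neuroectoderm. Replicates 1 and 2 of hESC held 787 and 818 read pairs in it, and those of neuroectoderm held 304 and 309. As a share of all read pairs this was 1.38% (95% exact binomial interval 1.29 to 1.48) and 1.42% (1.33 to 1.52) in hESC against 0.864% (0.770 to 0.966) and 0.871% (0.777 to 0.973) in neuroectoderm. In the hESC libraries 111 and 117 of the other windows had a lower total, and in neuroectoderm 25 and 26 did.

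The hESC share averaged 1.40% ± 0.03 (SD, n = 2) and the neuroectoderm share 0.867% ± 0.005 (SD, n = 2), a log2 change of -0.69. That was the lowest change of all 148 windows, whose median was -0.08 and whose highest was 0.64, and it follows in part from the low total that chose the window. The 2 adjoining windows did not share it. The log2 change was -0.02 in the window of the 3′ part of MNT (chr17:2383501-2393500) and 0.01 in the window of the 3′ end of METTL16 (chr17:2403501-2413500).

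**Figure D1:**
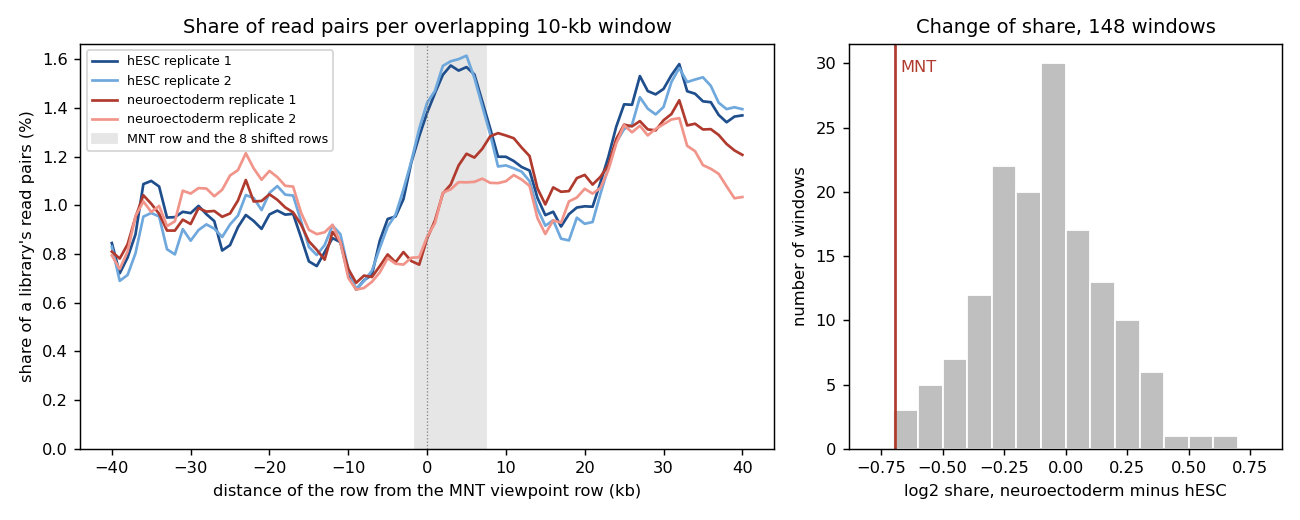
Share of a library's read pairs (%) in overlapping 10-kb windows against the distance of the window's row from the MNT row (kb), 1 line per library, and a histogram of the log2 change of share over the 148 non-overlapping windows. The hESC lines rise to a peak over the shaded MNT rows while the neuroectoderm lines climb later and less steeply, and the MNT window, at -0.69, is at the left end of the histogram.

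The matrices step by 1 kb, so the window was also moved over the 8 other rows used as shifted checks, 1 kb below and 1 to 7 kb above, all of which still hold the gene start. The log2 change of share went from -0.75 in the lowest of these rows (chr17:2392501-2402500) to -0.28 in the highest (chr17:2400501-2410500). The change was thus largest when the window lay over the 5′ part of the gene and smallest when most of it lay beyond the start. In the row 3 kb above (chr17:2396501-2406500), the share was 1.58% and 1.59% in hESC and 1.09% and 1.07% in neuroectoderm, and 4 windows of that register had a lower change. In the highest row 36 windows had a lower change. By mean neuroectoderm share, 27 windows were below MNT in its own row, against 86, 101, 92 and 100 in the rows 4 to 7 kb above. The low place of MNT in neuroectoderm thus depended on the row taken.

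Windows of like G and C content had lower and higher shares in neuroectoderm, and the part of base content in the MNT change was not tested. The 4 other windows within 3 percentage points of the G and C content of MNT had log2 changes from -0.57 to 0.34. Across the 148 windows the change of share had a Pearson correlation of 0.24 with G and C content and of -0.16 with the number of GATC sites, given without a p-value because windows share libraries and neighbours.

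The kind of contact within the window total also differed. Read pairs with both ends inside the MNT window were 18.3% and 21.0% of its total in hESC and 33.6% and 34.9% in neuroectoderm, against medians over windows of 17.4% and 17.5% in hESC and 28.3% and 27.4% in neuroectoderm. Contacts at least 20 kb away were 69.4% and 68.1% of its total in hESC and 55.6% and 56.6% in neuroectoderm. The window medians were thus also higher in neuroectoderm, and their part in the difference at MNT was not tested.

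The contacts of the window at least 20 kb away were then read against an expectation. For each of 145 partner windows, the expected number of read pairs was the library's own mean balanced value for that distance, turned back into reads with the totals of both windows. A value of 1 for observed over expected therefore means as many contacts as a pair of windows at that distance usually has, after allowing for the low or high total of the window itself. In sum over all partners the MNT window had 0.926 and 0.897 in hESC, against 0.781 and 0.764 in neuroectoderm.

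The values differed by side. Towards lower coordinates, where SGSM2, TSR1, SRR, SMG6 and HAR123 lie, observed over expected was 0.843 (252 read pairs) and 0.833 (264 read pairs) in hESC and 0.524 (58 read pairs) and 0.545 (65 read pairs) in neuroectoderm. Towards higher coordinates, where METTL16, PAFAH1B1, CLUH and RAP1GAP2 lie, it was 1.01 (294 read pairs) and 0.963 (293 read pairs) in hESC and 1.05 (111 read pairs) and 1.00 (110 read pairs) in neuroectoderm. The libraries of the cell types did not overlap on the lower side and interleaved on the higher side. This is a description only, since the read pairs are those that chose the window. Windows elsewhere with such a separation were not counted.

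A limma fit of the balanced values, summed to each side of each window and scaled to equal totals per library, gave the size of this difference. These sums rest on the read pairs that chose the window and were added after the values had been seen, so they are a description with no test. The log2 change from hESC to neuroectoderm was -0.67 (SE 0.11) for the lower side of the MNT window and 0.04 (SE 0.08) for its higher side. With voom on the read pairs, which keeps the window totals that balancing removes, both changes were below 0, at -1.04 for the lower side and -0.39 for the higher side. Other windows had lower-side changes near that of MNT, at -0.57 (SE 0.10) in chr17:2363501-2373500, -0.56 (SE 0.11) in chr17:2453501-2463500 and -0.65 (SE 0.21) in the distant chr17:1243501-1253500.

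The log2 sum of the lower side minus that of the higher side was also taken in each window. For MNT it was -0.13 in hESC and -0.84 in neuroectoderm, a change of -0.71 (SE 0.12). This too is a description with no test. Of the 144 windows with both sides, 2 had a lower change, chr17:1243501-1253500 at -0.77 (SE 0.20) and chr17:2453501-2463500 at -0.77 (SE 0.14). The window next to MNT in METTL16, chr17:2403501-2413500, had -0.68 (SE 0.13), and chr17:2363501-2373500 had -0.65 (SE 0.12). Some windows near MNT thus had changes of like size.

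**Figure D2:**
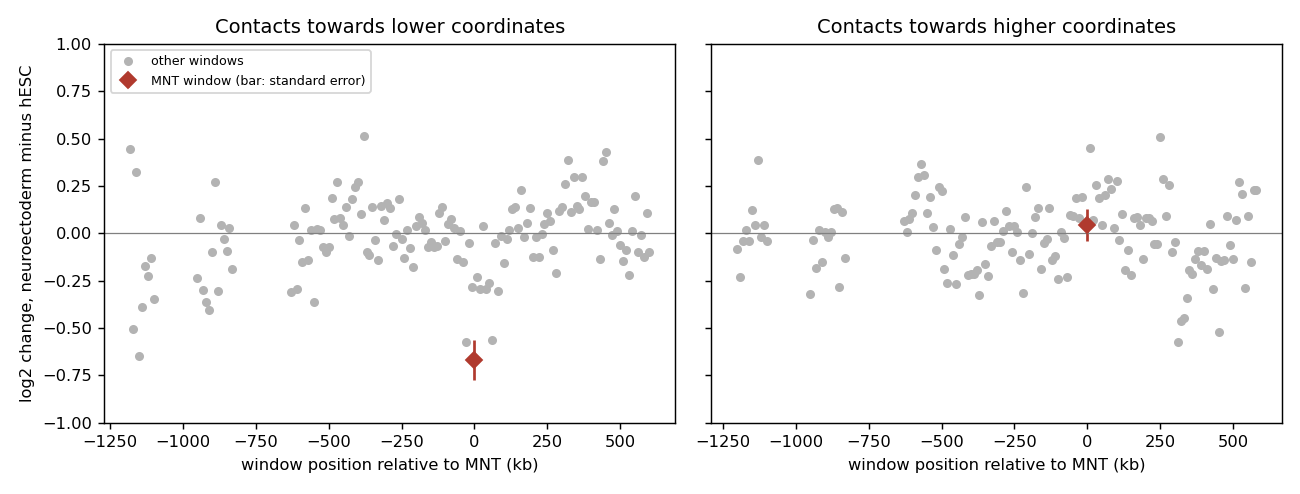
Log2 change from hESC to neuroectoderm of the summed balanced contacts of each window with all windows at least 20 kb away on its lower side (left) and higher side (right), against the position of the window relative to MNT (kb), 1 point per window. The MNT window (diamond, bar for the standard error) is at -0.67 on the left, with windows on either side of it at -0.57 and -0.56, and near 0 on the right, at 0.04.

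On the lower side, all libraries were below 1 from 20 to 400 kb, and lowest between 110 and 200 kb. In that band, which holds HAR123 and much of SMG6, the MNT window had 34 and 25 read pairs in the hESC libraries and 6 and 6 in those of neuroectoderm, for observed over expected of 0.494 and 0.334 in hESC and 0.253 and 0.232 in neuroectoderm. At 20 to 100 kb on the same side it was 0.963 and 0.987 in hESC, against 0.639 and 0.618 in neuroectoderm. The hESC libraries were thus close to 1 in the nearer band, and the neuroectoderm libraries were not. Past 400 kb the lower side climbed in hESC, reaching 1.00 (replicate 1) and 1.24 (replicate 2) at 410 to 600 kb. At 610 to 1400 kb these libraries stood at 1.75 (interval 1.04 to 2.76) and 1.84 (1.11 to 2.88). Neuroectoderm replicate 1 went from 0.723 to 0.421 (2 read pairs) over these bands, and replicate 2 from 0.715 to 1.48 (8 read pairs). In hESC the far lower side was thus not below expectation.

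On the higher side, values rose with distance from 20 to 400 kb in all libraries. Observed over expected was 0.722, 0.615, 0.544 and 0.701 in hESC replicates 1 and 2 and neuroectoderm replicates 1 and 2 at 20 to 100 kb, where most partners lie in METTL16. At 210 to 400 kb it was 1.55 and 1.73 in hESC, against 1.85 and 1.36 in neuroectoderm. The cell types overlapped in both of these bands. At 410 to 600 kb the neuroectoderm libraries were higher, at 1.95 (20 read pairs) and 1.91 (22 read pairs). Each hESC library had 1.26 there (32 and 34 read pairs), lower than at 210 to 400 kb. The intervals overlapped, at 1.19 to 3.01 and 1.20 to 2.89 against 0.863 to 1.78 and 0.875 to 1.77 in hESC. Such separations in other windows were not counted.

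**Figure D3:**
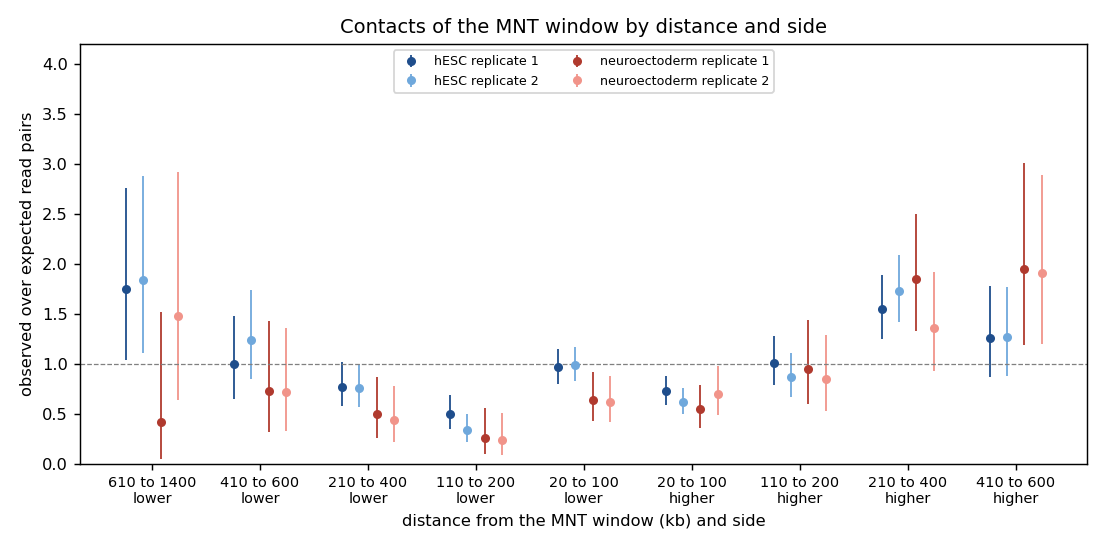
Observed over expected read pairs of the MNT window by distance band (kb) and side, 1 point per library with its exact 95% Poisson interval. Points of all libraries fall below the dashed line at 1 at 110 to 200 kb on the lower side, from 0.494 down to 0.232, and rise above it at 210 to 400 kb on the higher side, from 1.36 to 1.85.

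Gene by gene, SMG6 and SGSM2 held most of the reads of the lower side. SMG6 encodes an endonuclease of nonsense-mediated mRNA decay, and HAR123 lies within its gene body. The 24 windows of SMG6 had 77 and 67 read pairs with MNT in hESC and 20 and 16 in neuroectoderm, for observed over expected of 0.604 and 0.490 in hESC, against 0.443 and 0.33 in neuroectoderm. The upper ends of the 4 intervals, the highest being 0.755, all lay below 1.

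SGSM2, the next gene on the lower side, had 79 and 104 read pairs in the hESC libraries and 24 and 22 in those of neuroectoderm over 5 windows, for 0.872 and 1.08 against 0.729 and 0.611. SRR encodes serine racemase, which makes the NMDA receptor co-agonist D-serine. Its 2 windows had 23 and 17 read pairs in the hESC libraries and 1 and 3 in those of neuroectoderm, for 1.14 and 0.818 against 0.138 and 0.425. RTN4RL1, a receptor related to the Nogo receptor of axons, had 16 and 21 read pairs against 3 and 3 over 9 windows, for 1.01 and 1.23 against 0.468 and 0.385. In each of these 3 genes both neuroectoderm libraries were below both hESC libraries. These 3 and RAP1GAP2, given next, were named by an unadjusted limma p under 0.05, so the separation follows in part from that choice.

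RAP1GAP2, which encodes a GTPase-activating protein for RAP1 and fills the end of the matrix, had higher values in neuroectoderm. Its 25 windows had 53 and 54 read pairs in the hESC libraries and 27 and 28 in those of neuroectoderm, for observed over expected of 1.47 and 1.43 in hESC and 1.89 and 1.76 in neuroectoderm. All 4 intervals lay above 1. PAFAH1B1, the LIS1 gene of neuronal migration, had 1.19 and 1.20 in hESC and 1.76 and 0.906 in neuroectoderm, so the neuroectoderm libraries lay on either side of the hESC ones. METTL16, whose 3′ end faces MNT, had 0.726 and 0.632 in hESC and 0.574 and 0.715 in neuroectoderm.

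**Figure D4:**
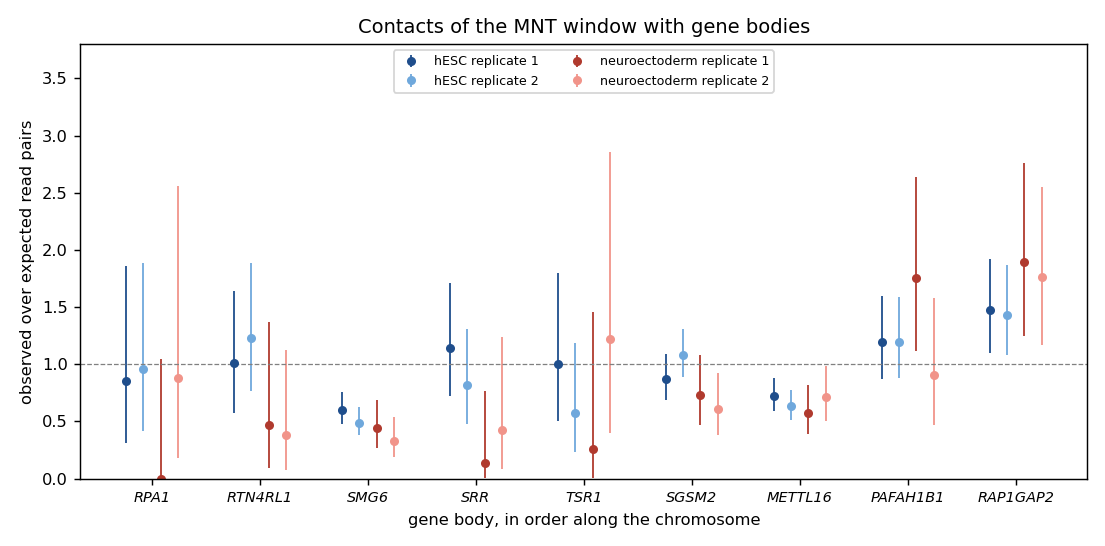
Observed over expected read pairs of the MNT window with gene bodies in their order along the chromosome, for genes with at least 3 expected read pairs in every library, 1 point per library with its exact 95% Poisson interval. SMG6 and METTL16 lie below the dashed line at 1 in all libraries and RAP1GAP2 above it, between 1.43 and 1.89.

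None of these gene bodies passed the test between cell types. In the limma fit over all windows against all gene bodies, 0 of 1516 combinations passed an adjusted p of 0.05, which is 0%, and 0 of the 11 gene bodies tested with MNT, out of 21 with windows, passed. At an unadjusted p under 0.05 there were 4 of 11 for MNT and 11.1% of all combinations. The MNT sums are parts of the read pairs that chose the window, so the 4 of 11 cannot show more change at MNT than elsewhere. These 4 were SRR (log2 change -1.84, SE 0.56), RTN4RL1 (-1.13, SE 0.43), SGSM2 (-0.58, SE 0.20) and RAP1GAP2 (0.60, SE 0.20), with adjusted p from 0.383 to 0.391 by limma. SMG6 had a change of -0.52 (SE 0.25, adjusted p = 0.472 by limma). For the other 6 the change ranged from -1.53 to 0.48, and every one of them took the other sign under at least 1 of the alternatives run.

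Single partner windows were also compared. Of the 83 MNT window pairs with enough signal to be tested, out of 145, 0 passed an adjusted p of 0.05 by limma, and 0 of the 4525 pairs tested in all passed, which is 0%. At an unadjusted p under 0.05 there were 5 of 83 for MNT, against 5.1% of all pairs. The MNT pairs too are parts of the read pairs that chose the window. Over all 10733 window pairs the average was fewer than 3 read pairs in each library, the tested pairs being those with a mean above the median. Such low counts limit what a test of 1 pair can find.

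The next question was whether MNT has any partner window with more contacts than expected within a cell type. By exact one-sided Poisson tests with Benjamini-Hochberg adjustment over 10733 window pairs, 0 of the 145 partners passed in both hESC libraries, where 0.13% of all pairs did, and 0 of 145 passed in both neuroectoderm libraries, where 0% did. At an unadjusted p under 0.05 in both replicates there were 6 of 145 in hESC, against 1.65% of all pairs, and 2 of 145 in neuroectoderm, against 0.634%. With the reads of both replicates summed, 4 of 145 passed in hESC, against 1.74% of all pairs, and 0 of 145 in neuroectoderm, against 0.298%.

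The 4 windows of the summed hESC reads lay close together, 290 to 360 kb above MNT. The window at chr17:2683501-2693500, where PAFAH1B1 ends and CLUH ends, had 10 and 6 read pairs in the hESC libraries and 0 in each neuroectoderm library, with 2.37, 2.58, 0.784 and 1.09 expected in the same order. The window at chr17:2713501-2723500 had 7 and 12 in hESC and 4 and 3 in neuroectoderm, with 2.48, 3.17, 0.952 and 1.07 expected. The window at chr17:2723501-2733500 had 6 and 10 against 2 and 2, with 2.25, 2.32, 0.739 and 0.80 expected. The latter 2 overlap the 3′ part of CCDC92B and were above expectation in every library.

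The last of the 4, chr17:2753501-2763500, holds the start of RAP1GAP2. The hESC libraries held 9 and 10 read pairs there against 3.04 and 2.66 expected, and the neuroectoderm libraries 0 and 1 against 0.915 and 0.943. The summed hESC value was 3.34 (exact 95% Poisson interval 2.01 to 5.21), with an adjusted p of 0.00147 by the exact Poisson test. That test takes no account of the spread between replicates. A count of 0 with less than 1 read pair expected does not show an absence of contact in neuroectoderm, and the difference between the cell types in this window did not pass the test above.

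The stretch from CLUH, an RNA-binding protein needed for the placement of mitochondria, to the start of RAP1GAP2 (8 windows, chr17:2683501-2763500) was therefore summed. It was chosen after its values had been seen and has no test. It had 47 and 61 read pairs with MNT in hESC and 16 and 18 in neuroectoderm. Observed over expected was 2.28 (interval 1.67 to 3.03) and 2.84 (2.17 to 3.64) in hESC and 1.90 (1.09 to 3.09) and 2.08 (1.23 to 3.29) in neuroectoderm. All 4 libraries were above 1 and the intervals of the cell types overlapped.

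Windows next to MNT were also high with this stretch. The METTL16 window at chr17:2403501-2413500 had 2.10 and 1.70 in hESC and 2.62 and 2.61 in neuroectoderm, and that at chr17:2423501-2433500 had 1.71 and 1.93 against 2.67 and 2.24. Both were above MNT in each neuroectoderm library and below it in each hESC library. Between MNT and the stretch, the windows between METTL16 and PAFAH1B1 had 0.964 and 0.792 in hESC and 0.799 and 0.753 in neuroectoderm, all below 1.

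**Figure D5:**
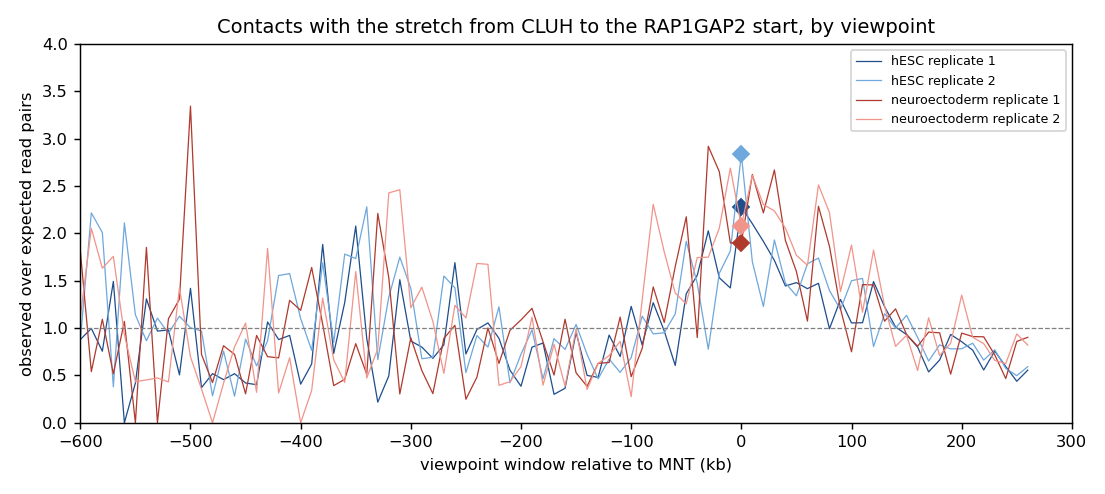
Observed over expected read pairs with the stretch from CLUH to the start of RAP1GAP2, for each viewpoint window against its position relative to MNT (kb), 1 line per library. The MNT values (diamonds) range from 1.90 to 2.84, and viewpoints beyond 200 kb above MNT come back to about the dashed line at 1 or under it.

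Ranked by observed over expected over all 4 libraries, the first 4 partners of MNT were distant windows with few reads. These were windows at the end of the matrix in RAP1GAP2 (chr17:2993501-3003500, 8 read pairs in all), in ABR (chr17:1203501-1213500, 5), in MYO1C, a myosin (chr17:1473501-1483500, 4), and in INPP5K, an inositol phosphatase (chr17:1493501-1503500, 4). The fifth was the CCDC92B window at chr17:2713501-2723500, with 26 read pairs in all and a value of 3.39. The order of the first 4 rests on single reads.

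The starts of the named genes gave fewer reads. The window of HAR123 (chr17:2233501-2243500, 160 kb below MNT) shared 6 and 3 read pairs with MNT in hESC against 5.32 and 5.58 expected, and 2 and 0 in neuroectoderm against 2.33 and 2.11. HIC1, a transcriptional repressor, had 4 and 1 in its window in hESC and 1 and 0 in neuroectoderm. Neither was above expectation in both libraries of a cell type.

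The window with the start of SMG6 had 13 and 8 read pairs with MNT in hESC, with 9.14 and 9.54 expected, and 0 and 1 in neuroectoderm, with 3.38 and 3.14 expected. The window with the start of SRR, next to it, had 12 and 8 against 4 and 1. The starts of TSR1, a ribosome assembly factor, and SGSM2 share a window, which had 11 and 12 against 2 and 5. The window with the start of PAFAH1B1 had 9 and 7 against 3 and 1, that of METTL16 had 7 and 8 against 3 and 3, and that of CLUH had 4 and 5 against 3 and 2. The start windows of RTN4RL1 and of RPA1, the large subunit of the single-stranded DNA-binding protein RPA, had 2 and 6 against 0 and 1, and 1 and 3 against 1 and 0. In each of these windows the neuroectoderm libraries together held fewer reads than the hESC libraries together, and fewer were also expected there.

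The balance of nearby contacts was also compared. Of the read pairs of the MNT window at 20 to 200 kb, the part that went to lower coordinates was 48.8% (159 of the pairs on that side against 167 on the other) and 51.8% (161 against 150) in hESC, and 42.4% (36 against 49) and 39.8% (37 against 56) in neuroectoderm. The means were 50.3% ± 2.1 (SD, n = 2) and 41.1% ± 1.8 (SD, n = 2). Of the 84 windows with all windows within 200 kb measured, 40 and 45 had a lower share in the hESC libraries. In the neuroectoderm libraries 22 and 19 did, so MNT was not at the low end. The exact binomial intervals of single libraries overlapped, reaching from 43.2 to 57.4 over both hESC libraries and from 29.8 to 53.5 over both neuroectoderm libraries. With 2 libraries against 2 an exact permutation test cannot go below 0.33.

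The insulation score at MNT was lower in both neuroectoderm libraries than in both hESC libraries. The score, the log2 of the mean contact between the 10 windows on either side relative to its mean over all windows, was -0.38 and -0.39 in hESC and -0.72 and -0.58 in neuroectoderm, where lower values mean fewer contacts across the window. The means were -0.38 ± 0.01 (SD, n = 2) and -0.65 ± 0.10 (SD, n = 2). Of the 104 windows that could be scored, 33 and 30 had a lower score in hESC and 13 and 15 in neuroectoderm. The MNT window was therefore not at the lowest point of the region in any library. Nor was the difference particular to it. The window of the 3′ part of MNT (chr17:2383501-2393500) had -0.33 and -0.34 in hESC against -0.75 and -0.69 in neuroectoderm. In SGSM2, chr17:2343501-2353500 had -0.44 and -0.42 against -0.81 and -0.72. In METTL16, chr17:2433501-2443500 had the other order, at -0.42 and -0.40 against -0.39 and -0.35.

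As a last description, the profile of the MNT window was compared with those of other windows, by Pearson correlation of the log2 observed over expected values of all libraries summed. The most alike were chr17:2373501-2383500 at the end of SGSM2 (r = 0.34 over 143 windows), chr17:2413501-2423500 in METTL16 (r = 0.33) and chr17:2353501-2363500 in SGSM2 (r = 0.29), all within 40 kb of MNT. The profile of MNT itself had a correlation of 0.38 between the hESC libraries, 0.26 between the neuroectoderm libraries and 0.20 to 0.31 between libraries of different cell types. The profiles share libraries and rest on few reads per window, so these values are a description with no p-value.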

How the data were processed

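Per the labels and the paper's methods, H9 cells and neuroectoderm made from them were cross-linked and put through a Hi-C kit, after which the authors aligned read ends to hg38 with Bowtie2 and built matrices with HOMER (versions not given in the sources used here). The deposited values are a contact signal, balanced by the authors within each library to equal row sums, over 2000 overlapping bins of chromosome 17 named in steps of 1 kb. A bin was read as the 10 kb from 4500 bases left of its name, as the study's list of interactions places it.

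Whole read pairs were recovered as the value divided by 2 bin factors. At least 99.9783% of the values of a library came out whole within 0.1. Windows were taken every 10 bins in register with the MNT row, and pairs under 20 kb apart were left out.

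Expected read pairs came from the mean balanced value at the same distance and the factors of both windows. Excess was tested per library with exact one-sided Poisson tests (scipy 1.17.1, numpy 2.4.6, Python 3.11.15). Cell types were compared by linear models in limma (3.58.1, run in R 4.3.3) with a trended eBayes step, fitted to log2(value + 1) of values scaled to equal library totals, which understates the change of low values. Window pairs and gene bodies were tested where their mean was above the median. Window sides were fitted without a filter, and only their changes and standard errors are given. Adjusted p-values are Benjamini-Hochberg over all features tested, with a threshold of 0.05. Share intervals are exact binomial and observed over expected intervals exact Poisson, at 95%. 

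The samples were grouped by their labels, 2 per cell type. The replicate numbers were not taken as pairs, since the deviations of libraries with the same number had a correlation of -0.01 over 4525 window pairs. The scripts were tested on simulated data. The alternatives were 8 shifted rows, other expectations, call rules, pseudocounts, filters and scalings, voom on read pairs, a replicate block and each library left out.

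The window, the gene lists and the tests were chosen with earlier results of these data known. Named are the start windows of listed genes, windows called in both replicates, the 5 highest observed over expected windows, the 3 most alike profiles, and window features, and gene bodies with an unadjusted p under 0.05 besides SMG6. CCDC92B and the 4 windows of the summed hESC reads were named after their values were seen.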

Additional observations from a re-analysis of the deposited data

How the results depend on the processing

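No MNT window pair passed the test between cell types under any of the 18 alternatives run. The number of hESC partner windows, out of 145, went from 0 to 4 with a call in at least 1 replicate, where 96 of all 10733 pairs passed. It was 4 with summed reads, against 1.74% of all pairs, and 3 with the percentile 95 rule, against 1.05%. With the expectation from distance only it was 1, and with 1 replicate left out it was 1 to 3. Shares of all pairs were not counted for these last settings. In neuroectoderm the number of partner windows went from 0 to 2 with the percentile 95 rule, against 0.708% of all pairs, and was 0 otherwise. No gene body of MNT was called under any alternative that kept 2 libraries per cell type. A fit with 1 library left out has 1 library in a cell type, so its calls are not given. Over all alternatives run, the log2 change ranged from -0.93 to -0.36 for SGSM2 and from -2.49 to -0.50 for SRR. The log2 change of the lower side of MNT, which has no test, was below 0 under all 15 alternatives run. It moved to -1.04 with voom on read pairs, to -0.55 in the row 1 kb below and to -0.47 in the row 7 kb above, and ranged from -0.69 to -0.64 with 1 library left out. With the median filter it had no value. The change of the lower side minus the higher side was -0.54 in the row 1 kb below and -0.88, -0.93, -0.96, -0.90 and -0.94 in the rows 2 to 6 kb above, and ranged from -0.78 to -0.64 with 1 library left out. The higher side, at 0.04, turned to -0.39 with voom on read pairs, which keeps the window total that chose MNT, and to -0.0061 in the row 1 kb below, and was 0.15 to 0.33 in the rows 1 to 7 kb above.

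With the replicate number as a block, the lower side of MNT had the same change of -0.67 and the difference between sides the same -0.71, and 0 window pairs and 0 gene bodies of MNT passed. The block changed no call of MNT.

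The lower-side share in hESC moved to 58.5% at 20 to 100 kb and 44.7% at 20 to 400 kb, and in neuroectoderm to 49.8% and 34.9%. In neuroectoderm it was 42.9% in the row 1 kb below and 38.8%, 36.2%, 34.3%, 35.5%, 35.9% and 38.0% in the rows 2 to 7 kb above. The insulation score over 5 and 20 windows was -0.086 and -0.55 in hESC and -0.36 and -0.77 in neuroectoderm. In hESC, where its SD was small, it was -0.37 in the row 1 kb below and -0.41, -0.41, -0.44, -0.42, -0.43, -0.42 and -0.42 in the rows 1 to 7 kb above. Contacts with the stretch from CLUH to the start of RAP1GAP2 were 3.04 (hESC) and 1.86 (neuroectoderm) against an expectation from distance only, 2.03 in hESC in the row 7 kb above, and 2.32, 2.57, 2.46 and 2.24 in neuroectoderm in the rows 4 to 7 kb above. The order of the cell types for the stretch was not kept. In the row 7 kb above, both neuroectoderm libraries (2.30 and 2.18) were above both hESC libraries (2.10 and 1.96), the reverse of the MNT row. In the row 5 kb above they were 2.48 and 2.67 against 1.98 and 2.50. The direction between the cell types in the lower-side share and the insulation score was the same in all 8 shifted rows. The cause of these movements was not tested.

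Depth limits what single window pairs can show. The neuroectoderm libraries held fewer read pairs, more of them within 1 window, and the MNT window in particular gave 169 and 175 read pairs at least 20 kb away, so that most partner windows had fewer than 2 expected reads there.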
